A study of Mus musculus with 24 samples.

Results

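The genes described here are 8 that mark Schwann cells and the myelin they make: Mbp, Prx, Mal, Pmp2, Sox10, Egr2, Cdh19 and S100b. They were read, by gene symbol, from a table of 25941 genes counted by polyA RNA-seq in mouse thoracic aorta. The rule uses the symbols and no measured value. The mice were adult male wildtype C57BL/6 animals aged 10 to 12 weeks, and the tissue was collected at zeitgeber time 11. For 3 weeks they had eaten chow with celecoxib at 100 mg/kg/day, chow with rofecoxib at 50 mg/kg/day, or the same chow with no drug, and each of these 3 groups had 8 libraries. Both drugs selectively inhibit cyclooxygenase-2, the enzyme encoded by Ptgs2. Celecoxib is a diarylpyrazole sulfonamide and rofecoxib a diarylfuranone methylsulfone. The comparison of the drugs with each other is also one between unequal doses. The labels do not tie libraries to animals, so the p-values measure the spread between libraries, which would be partly technical if any came from the same mouse.

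Schwann cells are the glia of peripheral nerves. Myelinating Schwann cells wrap a large axon in compact myelin, under the control of the transcription factors Sox10 and Egr2 (also called Krox20), while non-myelinating Schwann cells ensheathe thin axons such as those of sympathetic nerves. The aorta has such nerves in its outer coat, and vagal and sympathetic trunks run in the tissue beside it. In a bulk sample, fewer cells of a type and less RNA per cell cannot be told apart.

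Library totals ran from 21652432 to 21687906 counts, and levels below are CPM, counts relative to library size, scaled by the trimmed mean of M-values (TMM). The tissue carried aortic muscle RNA in every library: the summed level of 9 smooth muscle markers, among them Acta2 and Myh11, lay between 34144 and 51621 CPM. Control 6 and celecoxib 7 stood apart from their groups in most of the genes described here. Rofecoxib 4 was the highest of its group for Mbp, Prx, Mal, Sox10, Cdh19 and S100b, by a smaller margin. Control 6 was also the library with the highest summed level of 10 white adipocyte markers, at 8941 CPM against at most 4537 CPM in another control.

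The promoter windows of a pair of myelin genes and of Egr2 are shown first, since Egr2 behaved differently from the others across libraries. Each window runs from 250 bases before to 50 bases after a start site in RefSeq on GRCm38.p6, and 4 of the 8 genes have a window in that table (Mal, Prx, S100b and Egr2). The windows are Mal at chr2:127656646-127656945 on the minus strand, Prx at chr7:27499074-27499373 on the plus strand and 1 of the 5 Egr2 windows, at chr10:67537619-67537918 on the plus strand. They read 5′ to 3′, and capitals mark a CArG box, the site bound by serum response factor.
Mal: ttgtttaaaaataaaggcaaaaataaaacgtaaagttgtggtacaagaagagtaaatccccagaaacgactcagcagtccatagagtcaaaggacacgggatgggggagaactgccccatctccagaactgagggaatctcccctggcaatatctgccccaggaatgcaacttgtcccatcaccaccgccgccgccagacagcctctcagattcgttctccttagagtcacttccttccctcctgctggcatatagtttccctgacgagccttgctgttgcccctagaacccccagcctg
Prx: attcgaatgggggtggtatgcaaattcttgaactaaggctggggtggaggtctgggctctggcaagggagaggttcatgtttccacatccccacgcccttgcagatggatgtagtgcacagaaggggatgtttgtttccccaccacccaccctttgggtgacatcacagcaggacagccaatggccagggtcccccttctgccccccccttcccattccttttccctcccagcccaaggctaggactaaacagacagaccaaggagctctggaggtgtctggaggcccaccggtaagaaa
Egr2: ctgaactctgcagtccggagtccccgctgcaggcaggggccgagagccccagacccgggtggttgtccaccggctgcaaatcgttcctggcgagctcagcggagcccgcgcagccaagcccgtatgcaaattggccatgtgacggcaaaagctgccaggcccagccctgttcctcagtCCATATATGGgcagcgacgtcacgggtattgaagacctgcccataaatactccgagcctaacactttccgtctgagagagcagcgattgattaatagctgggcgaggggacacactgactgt
The SOX core ACAAAG, the EGR site GCGNGGGCG and the TATA box TATAAA, searched on both strands, were in no window of these genes. Of 32851 mouse windows of the same length, 18.7%, 5.55% and 13.6% held them. A CArG box was in 4 of the 5 Egr2 windows, which partly overlap each other, and in none of Mal, Prx or S100b. Windows that overlap hold the same copy, so these are not 4 separate sites. The CArG box was in 1.63% of all windows and in 1.81% of all genes with a window. Of 8 immediate early genes with a window, a list described below, 1 held it, Zfp36. This motif was searched after the levels had been seen. A match is a description of letters and no match says only that those letters are not in the window.

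None of these genes differed between groups at an adjusted p under 0.05 in edgeR's quasi-likelihood test, which could test 7 of the 8. The count was 0 of 7 for celecoxib against control, where 1.41% of the 14451 genes tested were called (0.913% higher and 0.498% lower). It was 0 of 7 for rofecoxib against control, against 5.3% of all genes (2.43% higher and 2.87% lower), and 0 of 7 for celecoxib against rofecoxib, against 22.7% (11.5% higher and 11.2% lower). At an unadjusted p under 0.05 it was also 0 of 7 in each comparison, where 17.3%, 27.1% and 36% of all genes passed. DESeq2 gave 0 as well, and so did edgeR without celecoxib 7, where 0.931%, 4.5% and 16.8% of all genes were called. The lowest and highest libraries of the groups overlapped for all 8 genes in all 3 comparisons. The share of all genes that overlapped is not given here, so this only describes the 8. The levels differed far more between libraries of a group than between groups, as the plot of levels by group shows.

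**Figure D1:**
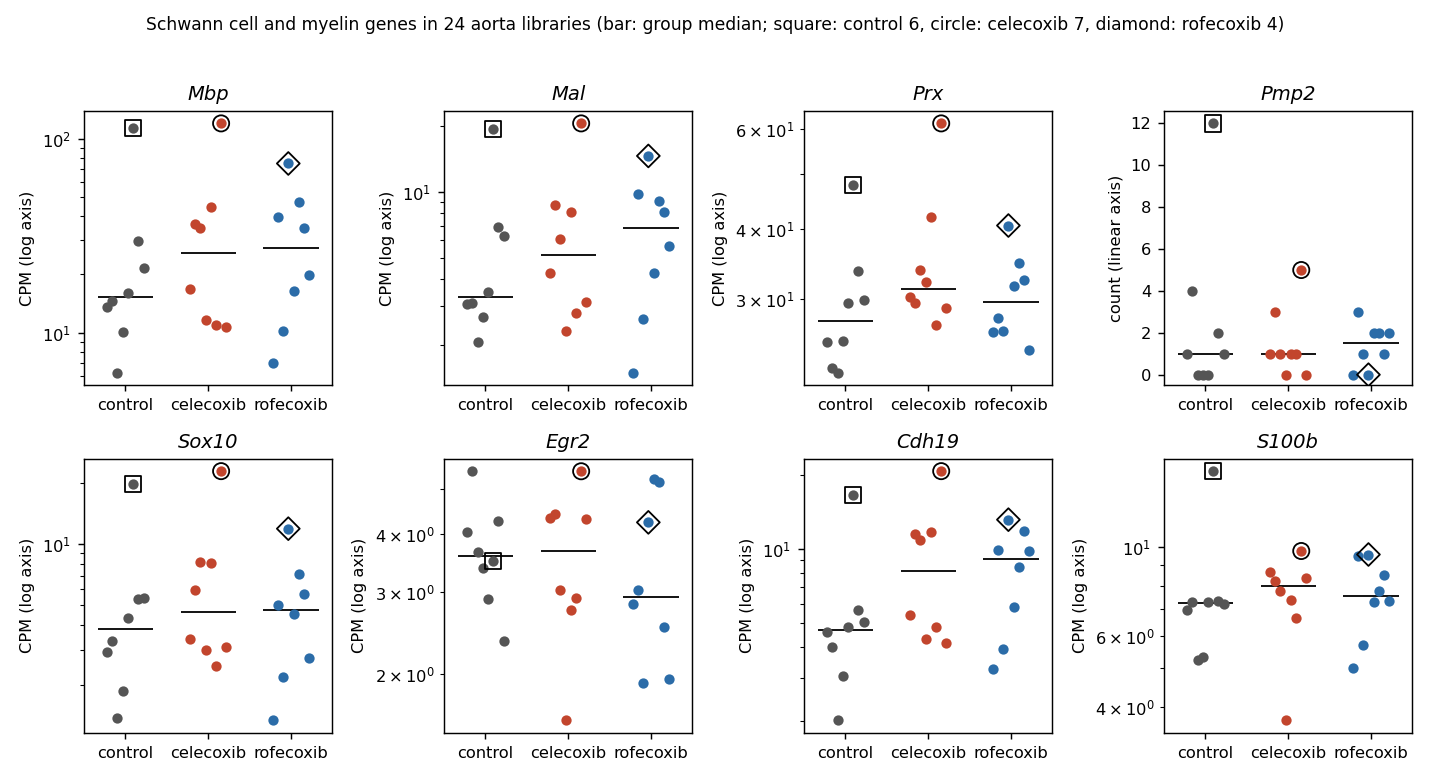
Level of each gene in every library, as TMM-scaled CPM on a log axis (Pmp2 as a count on a linear axis), by group, with 8 libraries per group and the bar at the group median. The square, circle and diamond mark control 6, celecoxib 7 and rofecoxib 4, which lie at the top of their groups for Mbp, Mal, Prx, Sox10, Cdh19 and S100b, while for Egr2 only celecoxib 7 does.

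Of the structural myelin genes, Mbp encodes myelin basic protein, which holds the cytoplasmic faces of compact myelin together. It is on chromosome 18 (82644336 to 82755231, mm9). Its level in controls was 6.23 CPM at the lowest, 15.4 at the median and 113 at the highest. With celecoxib it was 10.7, 25.7 and 120 CPM, and with rofecoxib 7.0, 27.2 and 74.6 CPM. The highest library of each group stood well above the rest of that group: the next controls reached 29.9 CPM, the next celecoxib libraries 44.3 CPM and the next rofecoxib libraries 47.2 CPM. For celecoxib against control Mbp had a log2 fold change of 0.34 ± 0.60 (SE, edgeR adjusted p = 0.816), with a 95% interval from -0.92 to 1.60. Without celecoxib 7 it was -0.25 ± 0.57, and without both celecoxib 7 and control 6 it was 0.56 ± 0.48. The sign of the Mbp difference therefore turned on which of these libraries were kept.

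Prx encodes periaxin, a scaffold of the outer Schwann cell membrane that links it to the basal lamina (chromosome 7, 28284141 to 28305435, mm9). It had the narrowest range of the 8 genes. Controls ran from 22.2 CPM through a median of 27.4 to 47.8, celecoxib libraries from 27.0 through 31.2 to 61.5, and rofecoxib libraries from 24.4 through 29.7 to 40.5 CPM. Celecoxib 7, control 6 and rofecoxib 4 were again the highest of their groups. For celecoxib against control Prx had a log2 fold change of 0.27 ± 0.17 (edgeR adjusted p = 0.412), and 0.11 ± 0.14 without celecoxib 7.

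Mal encodes a lipid raft protein of compact myelin that is also made by T cells and epithelia (chromosome 2, 127458760 to 127482633, mm9). Its level in controls ran from 2.06 CPM through a median of 3.29 to 19.4 CPM. Celecoxib libraries ran from 2.31 through 5.16 to 20.5 CPM, and rofecoxib libraries from 1.49 through 6.84 to 14.6 CPM. The same libraries were highest. The log2 fold change of Mal was 0.25 ± 0.51 for celecoxib against control (edgeR adjusted p = 0.847) and 0.24 ± 0.51 for rofecoxib against control (adjusted p = 0.796). The first became -0.22 ± 0.49 without celecoxib 7.

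Pmp2, which encodes the fatty acid carrier P2 of peripheral myelin (chromosome 3, 10179649 to 10184087, mm9), was nearly absent. It had 43 counts over the 24 libraries and none in 7 of them, and was too low to be tested. Control 6 held 12 counts, celecoxib 7 held 5, control 2 held 4 and no other library held more than 3. A library at 0 allows up to 3 counts.

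The transcription factors were both at low levels. Sox10 (chromosome 15, 78985141 to 78995122, mm9) is needed throughout the Schwann cell lineage and acts on Mbp and Egr2. It ran from 1.38 CPM through a median of 3.82 to 19.8 in controls, from 2.5 through 4.64 to 23.0 with celecoxib, and from 1.34 through 4.75 to 11.9 CPM with rofecoxib. Its highest libraries were those of Mbp. The log2 fold change of Sox10 was 0.36 ± 0.54 for celecoxib against control (edgeR adjusted p = 0.775), -0.19 ± 0.50 without celecoxib 7, and 0.49 ± 0.54 for celecoxib against rofecoxib (adjusted p = 0.551).

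Egr2 (chromosome 10, 66998021 to 67005138, mm9) drives the myelin genes in Schwann cells and is also induced within minutes by stimuli in many other cell types. It ran from 2.36 CPM through a median of 3.59 to 5.46 in controls, from 1.59 through 3.67 to 5.46 with celecoxib, and from 1.91 through 2.93 to 5.24 CPM with rofecoxib. The highest control was control 2 and the highest rofecoxib library was rofecoxib 5, while control 6 held 3.50 CPM, below its group's median. Egr2 had a log2 fold change of -0.04 ± 0.24 for celecoxib against control (edgeR adjusted p = 0.947) and -0.14 ± 0.24 for rofecoxib against control (adjusted p = 0.741).

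The other 2 genes mark the cell itself. Cdh19, a cadherin of Schwann cells and their precursors (chromosome 1, 112785570 to 112874151, mm9), had the largest fitted difference of the 7 for each drug against control in the fit of all libraries; between the drugs it was 0.15, below Sox10, Prx and Mbp. Controls ran from 2.02 CPM through a median of 4.71 to 16.6, celecoxib libraries from 4.16 through 8.14 to 20.6, and rofecoxib libraries from 3.26 through 9.13 to 13.1 CPM. Apart from control 6, no control was above 5.65 CPM, whereas 4 celecoxib and 6 rofecoxib libraries were. Those counts keep celecoxib 7 and rofecoxib 4, so only the controls lost their highest library. Counted in the same way, celecoxib and rofecoxib libraries were 4 and 4 for Mbp, 3 and 4 for Mal and 4 and 3 for Sox10. They were 6 and 4 for S100b, 3 and 2 for Prx, 1 and 0 for Pmp2 and 0 and 0 for Egr2. The log2 fold change of Cdh19 was 0.68 ± 0.40 for celecoxib against control (95% interval -0.15 to 1.52, edgeR adjusted p = 0.387) and 0.53 ± 0.40 for rofecoxib against control (adjusted p = 0.404). These 2 comparisons share the control libraries. Without celecoxib 7 the first was 0.40 ± 0.39. Without control 6 alone it was 1.14, beside 1.15 for Mbp, and the lowest adjusted p over the fits that each left out 1 library was 0.0924. Without both, the log2 fold changes were 0.85 ± 0.32 (adjusted p = 0.196) and 0.99 ± 0.32 (adjusted p = 0.0817). For rofecoxib that fit left out a high control and kept rofecoxib 4. Cdh19 thus stayed short of the threshold in each of these fits.

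S100b encodes a calcium-binding protein of Schwann cells that adipocytes also make (chromosome 10, 75716396 to 75724106, mm9). It ran from 5.23 CPM through a median of 7.25 to 15.4 in controls, from 3.70 through 7.99 to 9.77 with celecoxib, and from 4.99 through 7.57 to 9.57 CPM with rofecoxib. Control 6 was the highest by far, and the other 7 controls lay between 5.23 and 7.35 CPM. The log2 fold change of S100b was -0.04 ± 0.20 for celecoxib against control (edgeR adjusted p = 0.941), -0.03 ± 0.20 for rofecoxib against control and -0.00 ± 0.20 for celecoxib against rofecoxib.

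**Figure D2:**
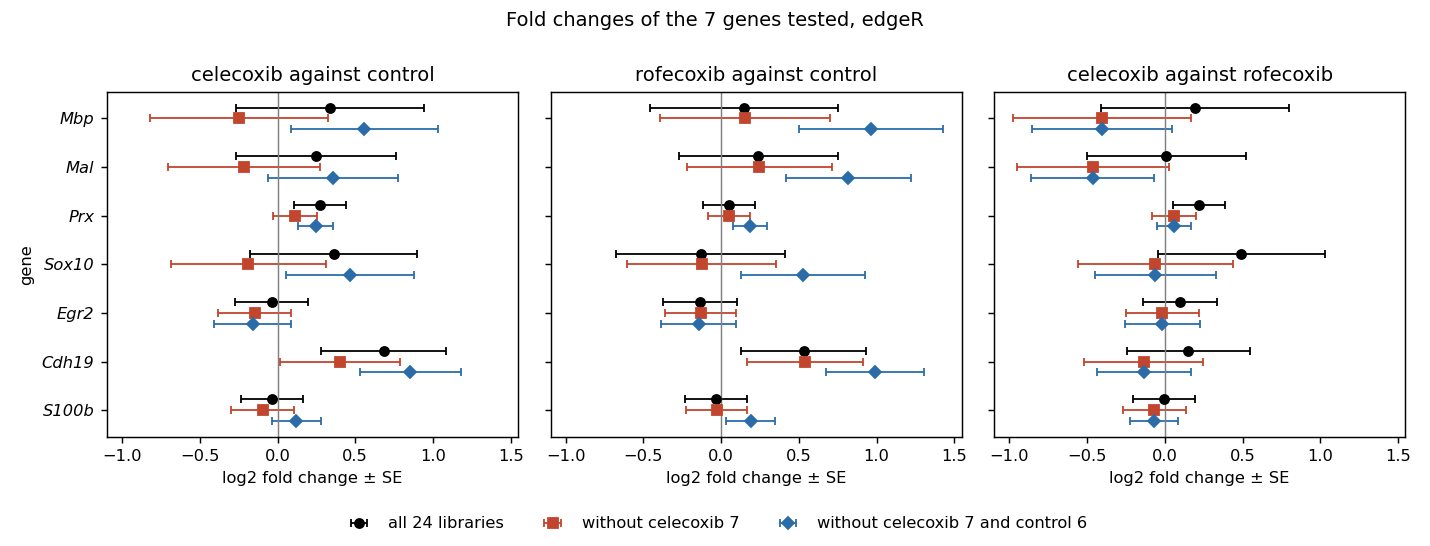
Log2 fold change ± SE of the 7 genes tested in the 3 comparisons, fitted with all 24 libraries (circles), without celecoxib 7 (squares) and without celecoxib 7 and control 6 (diamonds). For celecoxib against control, Mbp goes from 0.34 to -0.25 and then 0.56, while Cdh19 stays above 0 in each fit.

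The median log2 fold change of the 7 genes for celecoxib against control was 0.27, with 5 of 7 above 0, beside a median of -0.01 over all genes tested. Without celecoxib 7 the median was -0.15 and 2 of 7 were above 0, and without both celecoxib 7 and control 6 it was 0.35 with 6 above 0. For rofecoxib against control the median was 0.05 with 4 of 7 above 0, and 0.53 with 6 above 0 without both libraries. Celecoxib 7 is in neither group of that comparison, so the second fit took away control 6 and kept rofecoxib 4. A rise there is what leaving out a high control gives, and the genes vary together, so the counts above 0 are not independent. For celecoxib against rofecoxib the median was 0.15 with 6 of 7 above 0, and -0.07 with 1 of 7 above 0 once celecoxib 7 was left out. In that comparison Mbp was 0.19 ± 0.60, and -0.40 ± 0.57 without celecoxib 7 (edgeR adjusted p = 0.676). For rofecoxib against control the log2 fold change was 0.15 for Mbp, 0.05 for Prx and -0.13 for Sox10, and without both celecoxib 7 and control 6 it was 0.96 for Mbp (adjusted p = 0.207), 0.18 for Prx and 0.53 for Sox10. For Mbp, Mal and Sox10 the 95% interval of the log2 fold change spanned more than 2 units in each comparison.

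The spread of these genes between libraries was large beside that of other genes. From the lowest to the highest of the 24 libraries, Mbp covered 19.3-fold, Sox10 17.1-fold, Mal 13.8-fold and Cdh19 10.2-fold. S100b covered 4.16-fold, Egr2 3.44-fold and Prx 2.76-fold. The biological coefficient of variation, the spread between replicates beyond counting error, was 0.80 for Mbp, 0.72 for Sox10, 0.69 for Mal and 0.54 for Cdh19. The common value of all genes was 0.16. Among the genes tested, these 4 lay at percentiles 99.3, 99.1, 99.0 and 97.8, followed by Egr2 at 92.2, S100b at 88.6 and Prx at 83.5.

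Per kilobase of exon (GENCODE M21), Prx had the highest mean level over 24 libraries, at 5.72 CPM per kb, followed by S100b at 5.15 and Mbp at 3.74. Mal was at 2.37, Sox10 at 1.94, Cdh19 at 1.8, Egr2 at 1.05 and Pmp2 at 0.0583 CPM per kb. Sox10 and Cdh19 were not separated, since Sox10 was the higher in 11 of 24 libraries. Prx was above S100b in 16 of 24 libraries and Cdh19 above Egr2 in 16 of 24. Mal was above Sox10 in 20, S100b above Mbp in 19, Mbp above Mal in 23, and Egr2 above Pmp2 in all 24. The order at the top depends on the length used: with the longest transcript alone, Mbp had 6.60 CPM per kb and Prx 5.87.

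Apart from Egr2, the tested genes varied together. The rank correlation over 24 libraries of each gene with the mean log2 CPM of the other 6 was 0.97 for Mbp, 0.96 for Mal, 0.93 for Sox10, 0.90 for Cdh19, 0.84 for S100b and 0.76 for Prx. For Egr2 it was 0.27. The libraries share tissue makeup and depth, so these are descriptions. The values did not rest on celecoxib 7 and control 6 alone. Without these libraries, and with rofecoxib 4 kept, Pearson's r was 0.97 for Mbp, 0.95 for Mal and 0.93 for Sox10. It was 0.86 for Cdh19, 0.76 for S100b, 0.71 for Prx and 0.19 for Egr2. Over 24 libraries Pearson's r was 0.98, 0.96, 0.96, 0.90, 0.81, 0.83 and 0.29 in the same order. Some pairs fell further: Pearson's r of Prx and S100b went from 0.56 to 0.35. The closest pair was Mbp and Mal, with a rank correlation of 0.97. Celecoxib 7 was among the top 3 of 24 libraries for 7 of 7 genes, control 6 for 6 and rofecoxib 4 for 5. At the other end, control 3 was the lowest library for Mbp, Prx and Cdh19 and rofecoxib 1 for Mal and Sox10. High and low libraries were thus in every group.

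**Figure D3:**
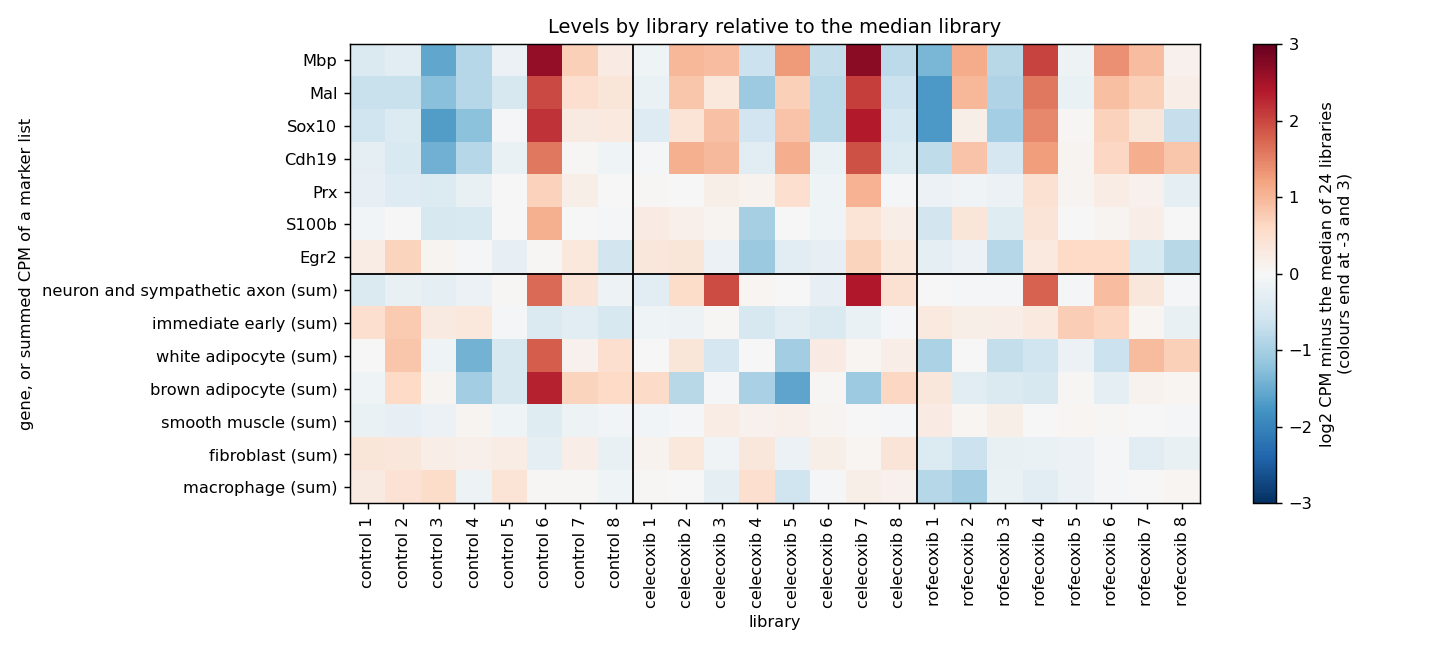
Log2 CPM of each gene in each library minus its median over 24 libraries, with the summed CPM of 7 marker lists below (colours end at -3 and 3). Control 6, celecoxib 7 and rofecoxib 4 are high in Mbp, Mal, Sox10, Cdh19 and the neuron list, control 6 alone is high in the adipocyte lists, and Egr2 follows another order.

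Egr2 was closer to the immediate early genes, a set that cells switch on within minutes of a stimulus. Its rank correlation over 24 libraries was 0.64 with Egr3, 0.62 with Egr1 and 0.50 with Fos, and 0.55 with the mean of 12 immediate early genes. For the other 6 genes the rank correlation with that mean lay between -0.38 and -0.14. Without the 2 libraries farthest from the median of Egr1, Pearson's r of Egr2 and Egr1 went from 0.70 to 0.65. Not every immediate early gene followed: with Dusp1 the rank correlation of Egr2 was -0.09 and with Zfp36 it was 0.15. With Nr4a1 it was 0.30, with Atf3 0.31, with Junb 0.34 and with Ier2 0.40. Some other lists came near the value of the immediate early list. Egr2 had a rank correlation of -0.49 with the mean of 9 smooth muscle markers and 0.43 with that of 5 cartilage markers. Of the 12, 0 were called for either drug against control in edgeR or DESeq2. At an unadjusted edgeR p under 0.05 there were 7 for celecoxib, 6 lower and 1 higher, where 17.3% of all genes passed. For rofecoxib there was 1, which was higher, where 27.1% passed. The median log2 fold change of the 12 for celecoxib against control was -0.47 with 8 below 0, and also -0.47 without celecoxib 7. For rofecoxib against control it was -0.11 with 7 below 0. Fosb, Jun, Atf3 and Nr4a1, 4 of the 12, were called lower with celecoxib than with rofecoxib, where 11.2% of all genes were. Fosb lost its call in 10 of the 24 fits that each left out 1 library, among them the fit without celecoxib 7, in which 3 of the 12 were called. Egr2 itself was at 0.10 ± 0.24 in that comparison (edgeR adjusted p = 0.802).

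**Figure D4:**
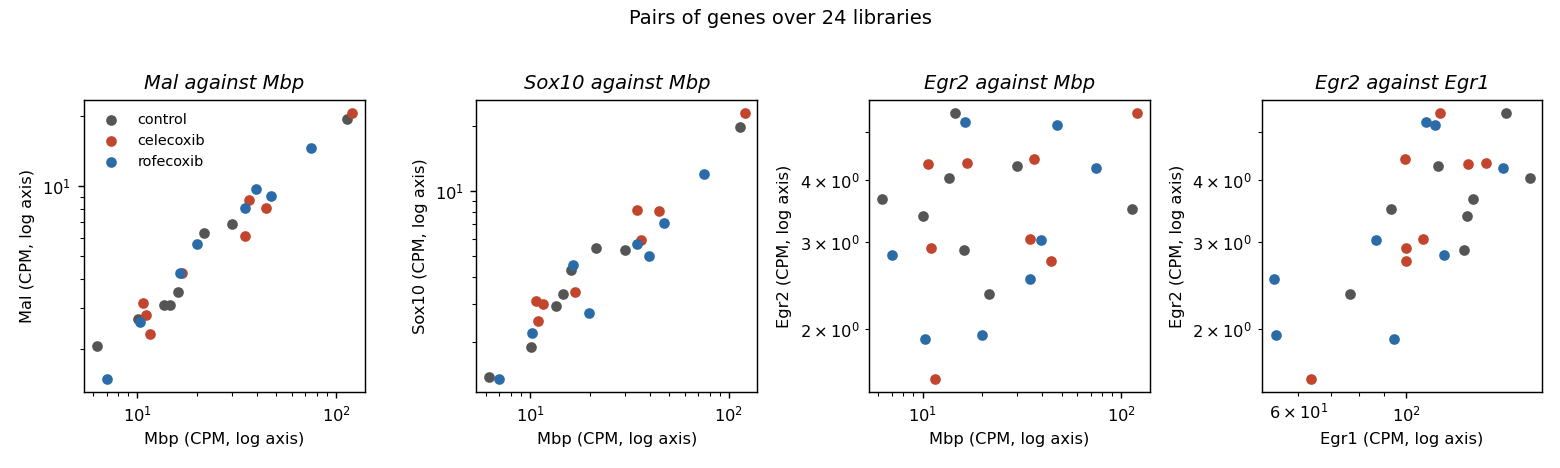
Levels of gene pairs in 24 libraries (CPM, log axes), coloured by group. Mal and Sox10 are higher where Mbp is higher, over its range from 6.23 to 120 CPM, whereas Egr2 lies scattered against Mbp and closer to a line with Egr1.

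The genes most like the mean of the 7, of 14444 others tested, included further Schwann cell genes, and 6 of the top 10 and 15 of the top 40 were in the 4 Schwann cell gene lists described next. Among the 10 with the highest rank correlation were Cadm4, Plekhb1, Erbb3, Igsf11, Cnp, Kcna6, Gpr37l1 and Kcna1. The 10 lay between 0.98 and 0.95 over 24 libraries. Cadm4 is the adhesion molecule of the Schwann cell side of the internode, Erbb3 the receptor for axonal neuregulin, Kcna1 a potassium channel and Cnp an enzyme of the myelin cytoplasm. All 10 were again the top 10 without celecoxib 7, and 8 of them after the group means had been taken out. In all, 28 genes reached 0.9, and the median over all genes was 0.00. Of the 8 named, none was called in any comparison.

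Of 18 other genes of the myelin sheath and its lipids, 17 were tested and 1 was called, in the comparison between the drugs, where 22.7% of all genes were. With celecoxib 0 of 17 passed against control, 1 of them (higher) at an unadjusted p under 0.05 and 0 in DESeq2. Their median log2 fold change was 0.29 with 16 of 17 above 0, -0.08 with 6 of 17 above 0 without celecoxib 7, and 0.47 with 13 of 17 above 0 without both celecoxib 7 and control 6. For rofecoxib against control 0 of 17 passed in edgeR, 2 at an unadjusted p under 0.05, and 1 in DESeq2. The median there was 0.14 with 13 of 17 above 0, and 0.86 with 17 of 17 above 0 without both libraries. For celecoxib against rofecoxib the tetraspanin gene Tspan2 was lower, by a log2 fold change of -0.22 (edgeR adjusted p = 0.0367). Tspan2 was at 381 CPM in the mean of all libraries, 376 at the median, and its rank correlation with the mean of the 7 genes was -0.31. It lost the call in 10 of the 24 fits without 1 library, among them the fit without celecoxib 7, and with a correction for transcript GC content its adjusted p was 0.382. Cnp and Cadm4, which followed the 7 genes, had edgeR adjusted p of 0.717 and 0.659 for celecoxib against control.

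Among 15 regulators of the Schwann cell state, 11 were tested, with median log2 fold changes of 0.05, 0.06 and -0.07 in the same 3 comparisons. None of the 11 was called for either drug against control. At an unadjusted edgeR p under 0.05 there were 0 for celecoxib and 4 for rofecoxib, where 17.3% and 27.1% of all genes passed, and DESeq2 called 0 for both. Between the drugs 2 of the 11 were called, against 22.7% of all genes. Notch1, a receptor that opposes myelination, was higher with celecoxib (log2 fold change 0.27, adjusted p = 0.034), and the histone deacetylase gene Hdac1 was lower (-0.12, adjusted p = 0.0085). Notch1 lost its call in 8 of the 24 fits without 1 library, among them the fit without celecoxib 7, and with the GC correction (adjusted p = 0.389). Hdac1 kept its call in all of these (0.0201 with the GC correction). Pou3f1, the factor of promyelinating Schwann cells, was at 0 in every library, and Pou3f2, Tfap2a and Sox2 were too low to test. Foxd3, a factor of the neural crest, had a rank correlation with the mean of the 7 genes of 0.81 at a mean level of 1.13 CPM, and those of the other regulators tested were 0.31 or less.

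Of 16 genes of the signalling between axon, Schwann cell and basal lamina, 15 were tested, with medians of 0.04 for celecoxib and -0.01 for rofecoxib against control and 0.14 between the drugs (log2 fold change). The last was -0.07, with 6 of 15 above 0 in place of 9, without celecoxib 7. With celecoxib against control 0 of 15 passed in edgeR, 5 at an unadjusted p under 0.05 (17.3% of all genes), and 1 in DESeq2. With rofecoxib against control 1 of 15 passed in edgeR, against 5.3% of all genes. The laminin receptor subunit gene Itgb1 was higher with rofecoxib than in controls (0.20 in log2 units, with an adjusted p of 0.0461 in edgeR), and it lost the call in 16 of the 24 fits that each left out 1 library, among them those without control 6 and without celecoxib 7. Its adjusted p was 0.0504 with a replicate block and 0.155 with the GC correction. Between the drugs 3 of the 15 were called, against 22.7% of all genes. The neuregulin co-receptor gene Erbb2 (0.34, adjusted p = 0.00932) and the laminin gene Lamb2 (0.20, adjusted p = 0.0308) were higher with celecoxib and Gldn, which encodes gliomedin of the node of Ranvier, was lower (-0.36, adjusted p = 0.00651). With the GC correction Gldn passed (adjusted p = 0.044), whereas Erbb2 and Lamb2 did not (0.0536 and 0.843). Lamb2 also lost its call in 8 of the 24 fits without 1 library, among them the fit without celecoxib 7. Nrg1, the axonal ligand of these receptors, had at most 4 counts in a library. The rank correlations of these 4 called genes with the mean of the 7 genes were -0.22 for Itgb1, 0.30 for Erbb2, -0.18 for Lamb2 and -0.24 for Gldn.

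Of 15 markers of non-myelinating or all Schwann cells, 13 were tested. For celecoxib against control 1 of 13 was called, against 1.41% of all genes. For rofecoxib against control it was 1 of 13, against 5.3%, and between the drugs 1 of 13, against 22.7%. Ncam1, the neural cell adhesion molecule, was lower with celecoxib, at 362 ± 32.0 CPM against 458 ± 67.3 CPM in controls (SD, n = 8 each). The difference was -0.34 ± 0.08 on the log2 scale (edgeR adjusted p = 0.0396). That call was lost in 13 of the 24 fits without 1 library, among them the fit without celecoxib 7 (adjusted p = 0.0728). Ncam1 was also lower with celecoxib than with rofecoxib (-0.29, adjusted p = 0.0173), a call that no such fit lost. Ptprz1, a receptor phosphatase of glia, was higher with rofecoxib than in controls (0.41 ± 0.11, adjusted p = 0.0348), which 6 of the 24 fits, among them the fit without control 6, and the GC correction (adjusted p = 0.0671) lost. Neither followed the 7 genes, with rank correlations of -0.31 and -0.09. The markers that did, such as Kcna1, Chl1, L1cam and Gpm6b, were called in no comparison. For celecoxib against control, 12 of the 13 were above 0, with a median log2 fold change of 0.47 that was 0.29 without celecoxib 7. The medians were 0.19 for rofecoxib against control and 0.14 between the drugs, beside -0.00 over all genes in both. Without celecoxib 7 the median between the drugs was -0.13, with 5 of 13 above 0 in place of 11, and without both celecoxib 7 and control 6 that for rofecoxib against control was 0.43.

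**Figure D5:**
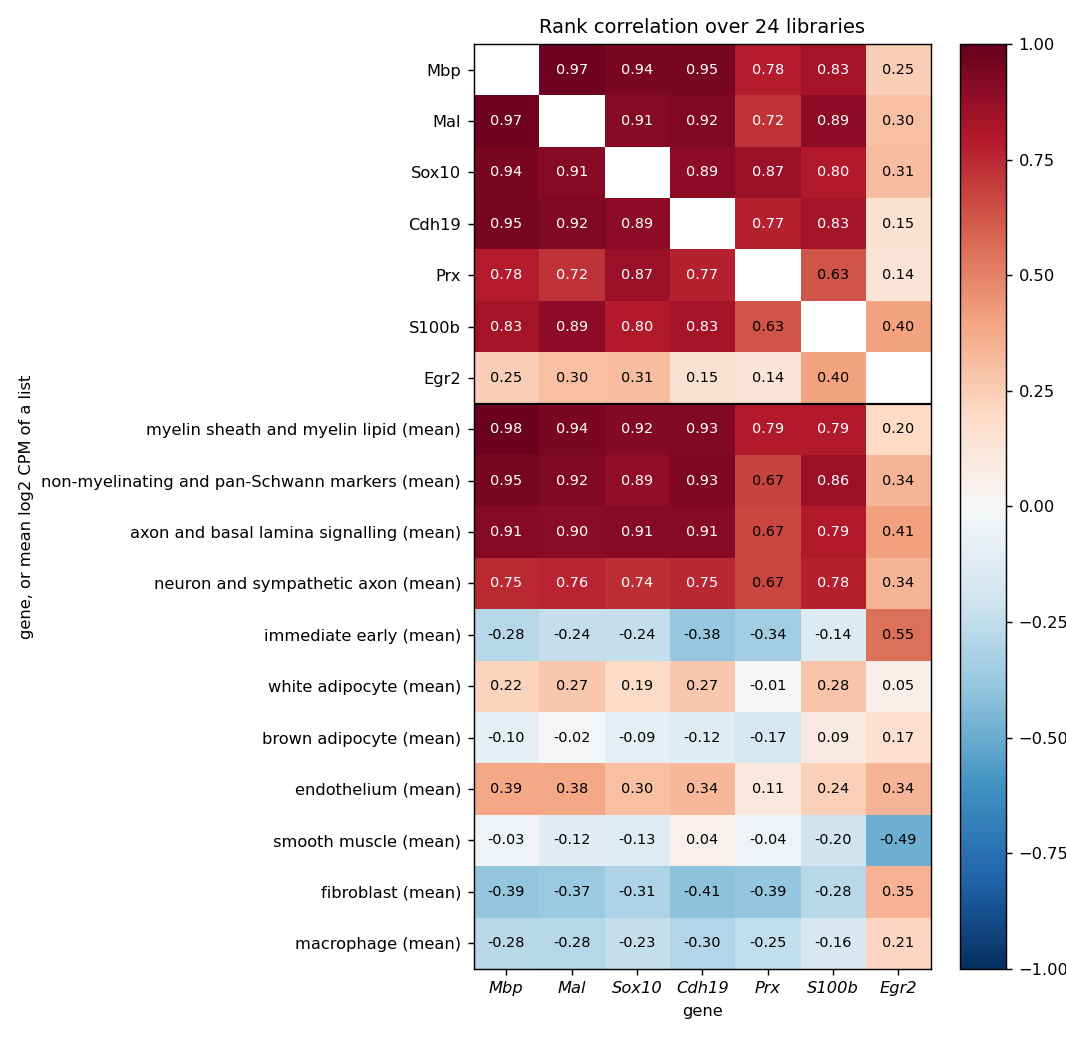
Spearman rank correlation over 24 libraries of each tested gene with the other genes (upper block) and with the mean log2 CPM of gene lists (lower block). Mbp, Mal, Sox10, Cdh19, S100b and Prx are correlated with each other (0.63 to 0.97) and with the Schwann cell and neuron lists, and Egr2 with the immediate early list (0.55).

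Markers of nerve cells moved with these genes. The rank correlation of the mean of 15 neuron and sympathetic axon genes with the mean of the 7 was 0.77. The summed level of the whole list of 17 ran from 67.7 to 298 CPM in controls, 72.6 to 483 with celecoxib and 88.5 to 312 with rofecoxib. It was 298 CPM in control 6, against at most 120 in another control. It was 483 in celecoxib 7 and 354 in celecoxib 3, against at most 133 in another celecoxib library, and 312 in rofecoxib 4 against at most 174. Th and Dbh, the enzymes that make noradrenaline, were the clearest. Th had a median of 0.0685 CPM in controls and 19.6 in control 6, 30.9 in celecoxib 7, 24.0 in celecoxib 3 and 18.7 in rofecoxib 4. It was at 0 in control 3, control 8 and rofecoxib 3. Celecoxib 3 was the second highest of 24 libraries in Th and Dbh. It ranked 4 for Sox10, 6 for Prx, 7 for Cdh19, 9 for Mbp, 10 for S100b, 11 for Mal and 14 for Egr2. Ngfr, from the list of markers of non-myelinating or all Schwann cells, was also second highest there, at 25.3 CPM. The libraries were thus not in the same order for Th and Dbh as for Mbp. Markers of the perineurium, the nerve sheath, followed less. The mean of the 5 tested had a rank correlation of 0.25 with the mean of the 7, and 0.16 without celecoxib 7. The summed level of all 6 was 149 CPM in control 6, the lowest control, and 178 CPM in celecoxib 7, the second highest celecoxib library. Of the 15 neuron genes, 0 were called in any comparison by edgeR, 0 at an unadjusted p under 0.05 and 0 by DESeq2. All 15 were above 0 for celecoxib against control, with a median log2 fold change of 1.30 that was 0.54 without celecoxib 7 and 2.22 without both celecoxib 7 and control 6. All 15 were also above 0 for rofecoxib against control, with a median of 0.43 that was 2.2 without both libraries. That fit left out control 6, the highest control, and kept rofecoxib 4, the highest rofecoxib library. The sum of the list rests on a few high libraries, so the counts above 0 are not independent. The part of nerve content in the values of the 8 genes was not tested.

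Among markers of other cells, the adipocyte, muscle, endothelial, macrophage and fibroblast lists had rank correlations with the mean of the 7 between -0.38 and 0.35, and the oligodendrocyte list stood higher. The rank correlation of the mean of the 7 was 0.17 with 10 white adipocyte markers, -0.07 with 9 brown adipocyte markers, -0.08 with 9 smooth muscle markers, 0.35 with 8 endothelial markers, -0.33 with 10 macrophage markers and -0.38 with 7 fibroblast markers. The white adipocyte sum was 8941 CPM in control 6, but 2664 CPM in celecoxib 7, where celecoxib libraries ran from 1224 to 3253 CPM. The brown adipocyte sum was 1664 CPM in control 6 and 159 CPM in celecoxib 7. Of 9 oligodendrocyte markers, the central counterpart of the myelinating Schwann cell, Mog, Mobp, Opalin, Olig2 and Ermn had at most 2 counts in any library, and Opalin was at 0 in all. The mean of the 3 tested, of which Aspa had a mean of 10.8 CPM, had a rank correlation of 0.82 with the mean of the 7. The summed level of the 9 ran from 7.19 to 27.2 CPM, highest in control 6. Its mean over 24 libraries was 12.5 CPM, most of it Aspa, and 6 of the 9 genes were too low to test. The sum therefore says little about the other markers, and its part in the values of the 7 genes was not tested.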

How the data were processed

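RNA of 24 thoracic aorta libraries was analysed from the counts that the authors deposited, whole numbers per gene in 1 table of 25941 genes with mm9 coordinates. STAR 2.5.1b, CASAVA 1.8.2 and the mm9 build are listed in the submitters' processing notes. The sources used here do not give the counting tool, the annotation or the strand setting, so reads of overlapping genes cannot be told apart. The library totals are nearly equal, and the step that made them so is not given either. Library construction took 3 days per the labels' protocols, and the day of each library is not given, so a batch effect was not tested.

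Genes were filtered with filterByExpr and tested in edgeR 4.0.16 (R 4.3.3) with a robust quasi-likelihood model of all 24 libraries, 1 mean per group, 21 residual degrees of freedom and Benjamini-Hochberg adjustment over 14451 genes. TMM factors ran from 0.959 to 1.03. Standard errors are the log2 fold change's size over the square root of F. Correlations used log2 CPM with a prior count of 2. GC content came from GENCODE M21, matched by Ensembl identifier for 14075 of the tested genes. Alternatives were DESeq2 1.42.0, no TMM, no filter, a GC correction (lowess span 0.3), a replicate block, the 2 groups compared alone, and libraries left out. The test was checked on simulated data. No pair of libraries of the same group agreed within sampling noise. The limit of 3 counts covers counting error only.

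The genes and all lists (4 of pathway genes, 16 of cell type markers) were chosen with earlier results of these data known. Named genes were the 8 genes, the called members of the pathway lists with up to 4 of smallest p, up to 3 markers of highest level per cell type list, and the 10 genes most like the mean of the 7. The text names part of these, and some are not reported here. Other genes named in the text were chosen after their values had been seen.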

Additional observations from a re-analysis of the deposited data

Results flagged for a closer look

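In 12 of the 24 sets of 8 libraries that hold 1 gene in 1 group, the highest library was separated from the next by more than Dixon's critical value of 0.526 of the whole range. Chance flags about 1 in 20 groups where values are normally distributed, and these sets are not independent because the genes vary together. The gaps were taken on CPM, which is skewed here, so that rate is no yardstick for the 12. On a log scale, which was not examined, the gap would be a smaller share of the range. All 12 were control 6 or celecoxib 7.

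Control 6 was separated for 7 of the 8 genes. It held 113 CPM of Mbp, where the other controls reached 29.9, 47.8 CPM of Prx, where they reached 33.7, and 19.4 CPM of Mal, where they reached 6.89. It held 19.8 CPM of Sox10 against at most 5.44, 16.6 CPM of Cdh19 against at most 5.65, and 15.4 CPM of S100b against at most 7.35. For Pmp2 it held 0.546 CPM against at most 0.182, which are 12 and 4 counts.

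Celecoxib 7 was separated for 5 of the 8 genes. It held 120 CPM of Mbp, where the other celecoxib libraries reached 44.3, 61.5 CPM of Prx, where they reached 41.9, and 20.5 CPM of Mal, where they reached 8.68. It held 23.0 CPM of Sox10 against at most 8.18 and 20.6 CPM of Cdh19 against at most 11.7. No rofecoxib library was separated in this way, although rofecoxib 4 was the highest of its group for Mbp, Prx, Mal, Sox10, Cdh19 and S100b.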

How the results depend on the processing

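None of the 7 tested genes was called in any comparison under any alternative: 0 with DESeq2, library totals, no filter, the GC correction, the replicate block, only the 2 groups compared, and each library or pair of libraries left out. The genes called over the whole table did depend on the setting. For celecoxib against control, 204 became 481 with DESeq2, 86 with no filter, 88 with only the 2 groups compared and 354 with the replicate block and GC correction. For rofecoxib against control, 766 became 1575 with DESeq2, 294 with no filter, 461 with only the 2 groups, 204 with the GC correction, 168 with the block and GC correction, 215 without control 6 and rofecoxib 2, and 309 without celecoxib 7 and control 6 (an alternative chosen after seeing the data). For celecoxib against rofecoxib, 3275 became 1395 with the GC correction and 1503 with the block as well. Leaving out 1 library gave 42 to 312, 170 to 1121 and 2147 to 3739. The causes were not tested.

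The fold changes that turned sign were all uncalled. For celecoxib against control, S100b became 0.18 without control 6 and rofecoxib 2, 0.0079 with the replicate block, 0.021 with the block and GC correction and 0.12 without celecoxib 7 and control 6. For rofecoxib against control, Sox10 became 0.53 without control 6 and rofecoxib 2, 0.065 with the GC correction, 0.14 with the block as well and 0.53 without celecoxib 7 and control 6, and S100b became 0.14 without control 6 and rofecoxib 2, 0.015 with the replicate block and 0.19 without celecoxib 7 and control 6. For celecoxib against rofecoxib, S100b became 0.046 without control 6 and rofecoxib 2, 0.0010 with no filter, 0.041 with the GC correction and 0.037 with the block as well, and Mal became -0.0075 with library totals. Without celecoxib 7 and control 6 that comparison gave Mbp -0.40, Mal -0.46, Sox10 -0.061, Egr2 -0.015 and Cdh19 -0.14.

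With 1 library left out, celecoxib against control ranged from -0.25 to 1.15 for Mbp, 0.11 to 0.40 for Prx, -0.22 to 0.82 for Mal, -0.19 to 1.02 for Sox10, -0.15 to 0.065 for Egr2, 0.40 to 1.14 for Cdh19 and -0.10 to 0.18 for S100b. The lower ends of Mbp, Prx, Mal, Sox10, Egr2 and Cdh19 came without celecoxib 7 and the upper ends of all but Egr2 without control 6. Rofecoxib against control ranged from -0.17 to 0.96 for Mbp, -0.016 to 0.18 for Prx, -0.00058 to 0.82 for Mal, -0.44 to 0.53 for Sox10, -0.26 to -0.03 for Egr2, 0.41 to 0.99 for Cdh19 and -0.093 to 0.19 for S100b. Without rofecoxib 4 it was lowest for Mbp, Prx, Mal and Sox10. Celecoxib against rofecoxib ranged from -0.40 to 0.51 for Mbp, 0.06 to 0.29 for Prx, -0.46 to 0.25 for Mal, -0.061 to 0.80 for Sox10, -0.015 to 0.22 for Egr2, -0.14 to 0.27 for Cdh19 and -0.068 to 0.10 for S100b.

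Replicate numbers did not pair the libraries: deviations of same-numbered libraries correlated at -0.39 to 0.32, over 0.1 in 10 of 24 pairs, and 5 of 24 libraries correlated best with their own number. The replicate block left 187, 653 and 3193 genes called and 0 of the 7. The smallest difference that 8 libraries a group could detect in the 7 genes was not computed. Standard errors of the log2 fold change for celecoxib against control ran from 0.17 for Prx to 0.60 for Mbp. The lack of a call therefore does not show equal levels, least of all for Mbp.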
